A study of Mus musculus with 8 samples.

Results

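MH-S cells given lipopolysaccharide (LPS) together with nanoparticles named RCMNs were compared with MH-S cells given LPS alone, across every gene of the deposited expression table. The comparison was chosen by sample title: it takes the 3 libraries of the combined treatment and the 2 libraries of LPS alone, 5 of the 8 libraries in the series. The other 3 libraries are control cells given phosphate-buffered saline, and their levels are given where they help to place a value. MH-S is an established line of mouse alveolar macrophages, so no group holds primary cells, tissue or an animal's disease. The labels state 100 ng/mL LPS and 1 µg/mL RCMNs for the combined treatment and no separate dose for LPS alone. No treatment time is given in the sources used here, and no group received RCMNs without LPS. Nothing in the labels ties replicates to separate cultures, so each p-value reflects the spread of these samples alone, and that spread may be technical.

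Alveolar macrophages are the resident phagocytes of the airspaces. LPS, a component of the outer membrane of Gram-negative bacteria, is sensed by Toll-like receptor 4, and the signal releases the NF-kappaB transcription factors, which switch on genes for cytokines, chemokines and their own inhibitors. The same signal drives production of reactive oxygen species (ROS), which cells hold in check with scavenger enzymes and with the Nrf2 pathway. The series title describes the nanoparticles as responsive to ROS and as meant for acute lung injury, so the comparison asks what the particles changed in macrophages that also met LPS.

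Total counts ran from 18.6 to 21.2 M per library, and 11911 of the 17518 listed genes had enough counts to test. Levels are given as CPM, read counts scaled to a common library size. The floor of 3 counts, which is as much as a count of 0 allows, corresponds to 0.130 to 0.182 CPM by library and covers counting error only. Most macrophage markers were present in every library, and the 12 listed summed to 5672.4 and 6927.5 CPM in LPS and to 6626.3 to 8262.8 CPM in LPS+RCMNs. Lyz2 alone held 2983.0 and 3817.7 CPM of those LPS sums, and Siglecf held at most 0.186 CPM in any library. Members moved both ways, with Spi1 lower in LPS+RCMNs than in LPS and Itgam higher. Both LPS libraries also held globin transcripts, which belong to red blood cells. The 4 globin genes summed to 4328.3 and 5589.6 CPM in LPS, against 29.9, 0.608 and 33.5 CPM in LPS+RCMNs and 0.477 to 20.4 CPM in control. Replicate 2 of LPS+RCMNs stood apart from its group: its counts differed from replicates 1 and 3 with a chi-square per degree of freedom of 42.7 and 35.5, against 2.82 between those 2 and 12.5 between the LPS libraries.

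Fold changes between the groups followed gene length. In the shortest of 10 length bins, with genes of up to 1136 bases, the median log2 fold change (LPS+RCMNs minus LPS) was -1.19, and 78.2% of genes were called lower. In the longest bin, from 6223 bases, the median was 0.94 and 71.1% were called higher. Short genes stood above the LPS+RCMNs mean by a median log2 of 1.14 and 1.15 in the LPS libraries and long genes stood at -0.92 and -0.82. In the same 2 bins the control and LPS+RCMNs libraries lay between -0.07 and 0.09. The origin of the trend was not tested. Each gene is therefore reported with a second fold change, here called corrected, from a fit that removes each library's trend on gene length and mean level. The median fold change of tested genes in the same cell of a grid of length and level, here called like genes, stands beside the lists.

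**Figure D1:**
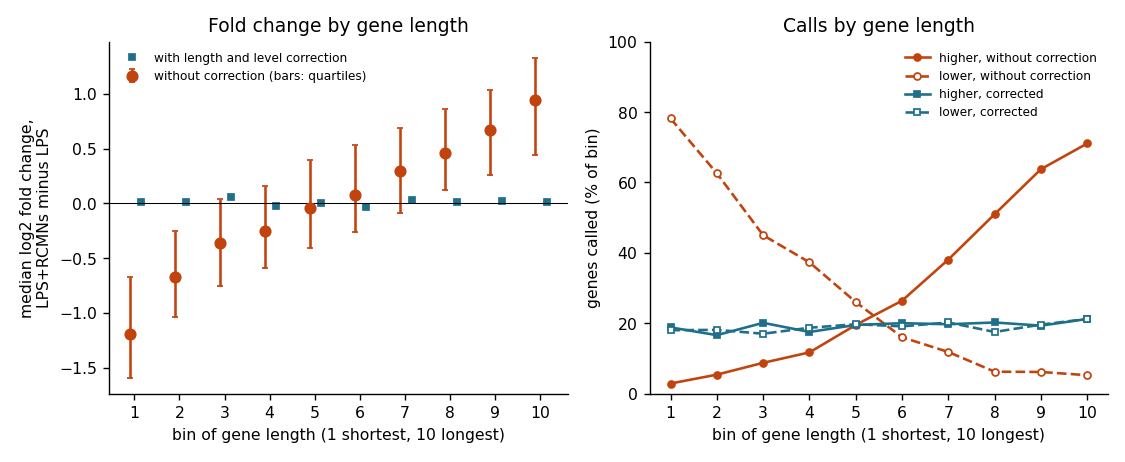
Left, median log2 fold change (LPS+RCMNs minus LPS) in 10 bins of gene length, with quartiles as bars for the uncorrected fit and squares for the corrected medians. Right, the percent of genes in each bin called higher or lower. Uncorrected medians run from -1.19 in the shortest bin to 0.94 in the longest, and corrected medians lie near 0 in each bin.

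At a Benjamini-Hochberg adjusted p below 0.05 in edgeR's quasi-likelihood test, 3555 of the 11911 genes were higher (29.8%) and 3508 lower (29.5%) in LPS+RCMNs than in LPS, together 59.3%. In the corrected fit 2299 were higher (19.3%) and 2254 lower (18.9%), together 38.2%. The 2 fits called 3312 genes in the same direction (27.8%), 1704 higher and 1608 lower, and 236 genes in opposite directions. The CPM values of the 2 groups did not overlap for 8922 genes (74.9%). With calls this common, each list below is read against those percentages and not against 0. Calls depended on both LPS libraries: after correction 10.7% of genes were higher and 11.3% lower without LPS replicate 1, and 11.1% and 12% without LPS replicate 2. Leaving out other libraries moved the background too. After correction 2867 of 11874 genes were higher and 2686 lower without control replicate 1. The counts were 1767 and 1632 without LPS+RCMNs replicate 1, 2626 and 2590 without replicate 2, and 1673 and 1545 without replicate 3. Counts within lists are given without a library for many of the lists where that moved a count by over 1.5 times. Counts given without such values can move as much, as the number of feedback and immediate early genes higher after correction did. The 3 members of each list with the largest corrected change among those called in both fits were taken by rule. Not all of these are described, and other members named below were chosen after their values were seen.

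Several cytokine transcripts were lower with RCMNs. Il6, which encodes the pro-inflammatory cytokine interleukin-6, stood at 107.5 and 133.3 CPM in LPS and at 3.97, 4.0 and 3.65 CPM in LPS+RCMNs. The LPS+RCMNs libraries lay close together and far below both LPS libraries, while control libraries held 0.217 to 0.605 CPM. The log2 fold change was -4.96 ± 0.18 (SE; edgeR adjusted p = 7.8e-07) and -4.26 ± 0.17 corrected (edgeR adjusted p = 5.14e-06). Il1b, the fever-inducing cytokine interleukin-1 beta, had 354.5 and 349.0 CPM in LPS and 6.67, 6.38 and 7.40 CPM in LPS+RCMNs, a corrected log2 fold change of -5.14 ± 0.15 (SE). Il1a, its sister cytokine, had 63.1 and 75.4 CPM in LPS against 2.60, 2.03 and 2.84 CPM, a corrected change of -4.72 ± 0.15 (SE). The wider list of the interleukin-1 family and inflammasome did not share that direction: of 22 tested, 7 were lower and 6 higher without correction, and 4 were lower and 6 higher with it, a median of 0.13. P2rx7, an ATP receptor that can trigger the inflammasome, had 223.9 and 262.4 CPM in LPS against 1086.3, 716.1 and 1087.7 CPM, a corrected change of 1.80. Of the 13 other cytokines tested, 8 were lower and 2 higher, with a median log2 fold change of -1.28 beside -0.15 for like genes. In the corrected fit 6 were lower and 3 higher. Il12b, a subunit of interleukins 12 and 23, and Lif, a cytokine of the interleukin-6 family, both had corrected changes of -4.15. Csf1, the macrophage growth factor, went the other way with a corrected change of 1.22.

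Chemokines, the cytokines that attract leukocytes, were mostly short genes whose like genes were low as well. Of 15 tested, 10 were lower and none was higher, with a median of -1.13 beside -0.93 for like genes, and in the corrected fit 6 were lower and 1 higher. Cxcl10, an interferon-induced attractant of T cells, stood at 124.7 and 126.9 CPM in LPS and at 4.51, 5.42 and 5.82 CPM in LPS+RCMNs. The groups were well apart, and the corrected log2 fold change was -3.79 ± 0.15 (SE; edgeR adjusted p = 5.14e-06). Cxcl2, a neutrophil attractant, had 144.4 and 197.1 CPM in LPS against 18.2, 5.47 and 15 CPM, with replicate 2 the lowest. Its corrected change was -2.87 ± 0.46 (SE). Ccl3, which attracts monocytes, fell by 2.72 on the log2 scale without correction, and its corrected change of -1.08 did not pass the test. Ccl5 had a corrected change of 0.33 that did not pass the test, after a called -1.13 without correction.

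Among 21 tested NF-kappaB subunits and inhibitors, 12 were lower and 5 higher, a median of -0.68 beside 0.17 for like genes. After correction 12 were lower (57.1%) and 1 higher (4.76%), with a median of -0.92, and 9 to 13 were lower when any 1 library was left out. Nfkb2, the precursor of the p52 subunit, stood at 115.2 and 95.8 CPM in LPS and at 16.2, 31.8 and 16.6 CPM in LPS+RCMNs, against 29.2 to 39.3 CPM in control. Its corrected log2 fold change was -2.52 ± 0.27 (SE; edgeR adjusted p = 0.000258). Relb, the partner of p52, had a corrected change of -2.13 and Tnfaip3, which encodes the A20 inhibitor, one of -2.46. Nfkbia, the inhibitor IkappaB alpha, had 178.9 and 208.2 CPM in LPS against 47.2, 46.8 and 44.9 CPM, a corrected change of -1.39. Rela, the p65 subunit, was called lower at -0.30 without correction and not after it (-0.14). Nfkbid was higher in the corrected fit only (1.22). In this list 10 genes were called in the same direction in both fits and 1 in opposite directions.

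Not every LPS-responsive gene was lower. Tnf, a central macrophage cytokine, had 99.9 and 176.0 CPM in LPS and 169.4, 154.7 and 168.3 CPM in LPS+RCMNs, so the groups overlapped. Its log2 fold change was 0.25 ± 0.40 (SE; edgeR adjusted p = 0.61) and 0.92 ± 0.42 corrected (edgeR adjusted p = 0.116). Nos2, the inducible nitric oxide synthase, overlapped too, at 2.85 and 2.61 CPM against 1.67, 2.78 and 1.54 CPM, and was not called in either fit. Neither result was stable under alternative fits. The corrected change of Tnf ran from 0.56 to 1.41 over 13 of them and was called higher in 3. Nos2 was called lower in 1 of 17 without correction and in 1 of 13 with it. Lcn2, an iron-binding antibacterial protein, was higher with RCMNs, at 93.7 and 78.4 CPM in LPS and 165.0, 132.9 and 151.3 CPM in LPS+RCMNs, a corrected change of 1.85 ± 0.15 (SE; edgeR adjusted p = 7.71e-05). Control libraries held 0.130 to 0.186 CPM of it. Il1rn, the antagonist of interleukin-1 receptors, was lower, at 819.1 and 647.1 CPM against 325.6, 180.9 and 294.3 CPM, with a corrected change of -1.13. Its corrected call was lost with annotated gene lengths (edgeR adjusted p = 0.102) and without LPS replicate 1 (edgeR adjusted p = 0.0537). Of 37 tested interferon-stimulated genes, 9 were lower and 4 higher, and in the corrected fit 5 were lower (Isg15 at -1.0) and 2 higher, below the background percentages. Leaving out 1 library moved those counts to 3 to 9 lower (3 without either LPS library, 9 without control replicate 1) and 1 to 6 higher (6 without LPS+RCMNs replicate 2). Of 30 feedback and immediate early genes, 10 were lower and 5 higher after correction, among them Nr4a3 (-3.71), Fosb (-3.06) and Egr3 (2.75), which encode transcription factors.

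**Figure D2:**
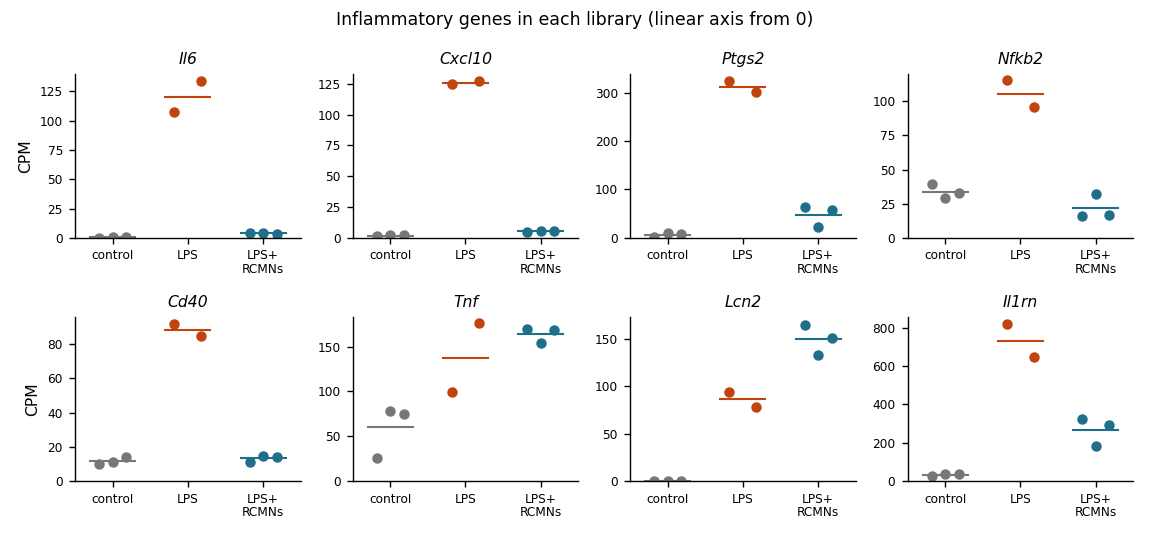
CPM of 8 inflammatory genes in each library, on linear axes from 0, with lines at the group means (control n = 3, LPS n = 2, LPS+RCMNs n = 3). Il6, Cxcl10, Ptgs2, Nfkb2, Cd40 and Il1rn are lower in each LPS+RCMNs library than in both LPS libraries, Tnf overlaps and Lcn2 is higher.

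The promoters of Il6 and Cxcl10 are shown because these genes were among those lowest with RCMNs and because NF-kappaB acts through short kappaB sites. Each is the 250 bases before the start of the gene in RefSeq (GRCm38.p6), 5′ to 3′ on the gene's strand, with matches to the kappaB consensus in capitals. Il6 lies on the plus strand and its window is chr5:30012864-30013113. Cxcl10 lies on the minus strand and its window is chr5:92348890-92349139.
Il6: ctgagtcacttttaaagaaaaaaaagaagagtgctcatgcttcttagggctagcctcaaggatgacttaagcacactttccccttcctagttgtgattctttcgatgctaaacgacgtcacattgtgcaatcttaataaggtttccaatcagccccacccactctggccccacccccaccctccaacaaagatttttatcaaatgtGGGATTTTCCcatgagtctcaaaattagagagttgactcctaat
Cxcl10: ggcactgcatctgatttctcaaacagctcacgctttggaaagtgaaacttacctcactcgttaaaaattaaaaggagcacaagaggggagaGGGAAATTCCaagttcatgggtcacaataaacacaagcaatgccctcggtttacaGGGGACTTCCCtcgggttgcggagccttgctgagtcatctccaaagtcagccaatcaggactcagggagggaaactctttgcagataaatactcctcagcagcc
The Il6 window held 1 match, whose first base is 44 bases before the start. The Cxcl10 window held 3, starting 159, 104 and 103 bases before it, the last 2 overlapping. Of 9629 tested genes with a promoter in the RefSeq table, 10.5% held a match on either strand. The share was 10.6% among genes lower in both fits and 11.7% among genes higher in both, so over all tested genes the letters alone did not separate the directions. In the lists above, 9 of 16 NF-kappaB genes, 4 of 10 chemokines and 5 of 7 other cytokines with a promoter held a match. These shares were not tested. A match is a description of these windows and not evidence of binding.

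Most listed receptors for chemoattractants were higher with RCMNs. Of 17 tested, 11 were higher and 1 lower, with a median log2 fold change of 1.56 beside -0.03 for like genes. In the corrected fit 12 were higher (70.6%) and 1 was lower, and the median was 1.85. That number was 7 without LPS replicate 1 and 7 without LPS replicate 2, and 11 to 13 without any 1 of the other libraries. Ccr1, a receptor for several CC chemokines, lies at chr9:123962126-123968692 and had 7.51 and 11.2 CPM in LPS and 95.5, 45.6 and 92.5 CPM in LPS+RCMNs. Control libraries held up to 72.5 CPM and overlapped LPS+RCMNs, so the LPS libraries were the low ones. The corrected log2 fold change was 3.02 ± 0.37 (SE; edgeR adjusted p = 0.000477). Ccr2, the monocyte receptor for Ccl2, had a corrected change of 3.10, and C5ar1, the receptor for complement fragment C5a, one of 1.96 at 247.2 and 246.1 CPM against 856.9, 500.9 and 826.4 CPM. Cxcr4, the receptor for Cxcl12, was the 1 list member that was lower (-2.43 corrected). Cxcr2, a receptor for Cxcl2, stood among the neutrophil markers and not in this list, and it was lower as well, at 13.3 and 33.4 CPM in LPS against 3.88, 3.8 and 4.37 CPM (-2.75 corrected).

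Toll-like receptors changed in both directions. Of 22 receptors and adaptors tested, 12 were higher and 5 lower, and in the corrected fit 10 were higher (45.5%) and 5 lower (22.7%). Without LPS replicate 1 and without LPS replicate 2, 6 were higher and 5 lower. Tlr13, a receptor for bacterial ribosomal RNA, stood at 26.0 and 31.2 CPM in LPS and at 322.9, 124.3 and 298.4 CPM in LPS+RCMNs, with a corrected change of 2.81 ± 0.38 (SE). Tlr4 itself had 22 and 21 CPM against 97.5, 59.1 and 98.5 CPM, a change of 1.98 that was 1.01 after correction and still called, beside a median of 1.01 for like genes. Tlr2, the receptor for bacterial lipoproteins, was lower, at 158.2 and 156.9 CPM against 48.3, 60.4 and 51.6 CPM, with a corrected change of -1.50. The adaptor Myd88 (-0.40) and the kinase Irak3 (-1.05), a brake on the pathway, were lower too. In each of these genes replicate 2 of LPS+RCMNs did not cross the LPS values. Tlr13 held 133.5 to 180.0 CPM in control, within the range of LPS+RCMNs.

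Of 20 cytokine and growth factor receptors, 12 were higher and 2 lower in each fit, but only 9 genes were called in the same direction in both. Of 27 lectins, Fc and paired receptors 13 were higher and 4 lower after correction, but 11 and 9 without it, and the uncorrected counts were 6 higher and 9 lower without LPS replicate 1, so the balance of this list rests on the correction. Vsir, the inhibitory receptor VISTA, had 12.5 and 14.3 CPM in LPS and 156.7, 87.1 and 142.8 CPM in LPS+RCMNs, a corrected change of 2.71. Mertk, a receptor for the uptake of dying cells, had 0.545 and 0.727 CPM against 10.9, 4.30 and 9.61 CPM, a corrected change of 3.17. In control Vsir held 104.8 to 161.2 CPM and Mertk 10.2 to 11.4 CPM, so the LPS libraries were the low ones. Clec4e, a receptor for mycobacterial glycolipid, was lower (-1.93). Of 14 tested alveolar macrophage genes 9 were higher and none was lower after correction, a median of 0.81, although 3 had been called lower without it. Another 8 of the 23 listed genes, among them the defining markers Siglecf, Car4, Chil3 and Pparg, were in the table at no more than 0.506 CPM and were not tested. Of the 15 genes of that list tested without LPS replicate 1, 4 were higher, and 3 of 15 were without LPS replicate 2. Klf4, a macrophage transcription factor, was lower (-1.60 corrected).

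**Figure D3:**
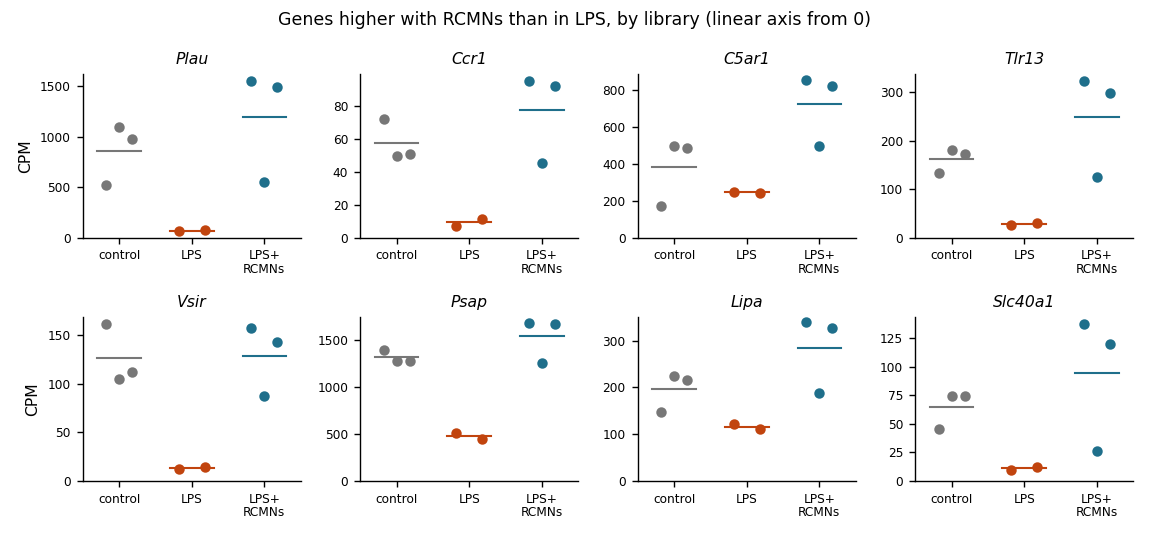
CPM of 8 genes that were higher with RCMNs than in LPS alone, on linear axes from 0. Lines mark the group means (control n = 3, LPS n = 2, LPS+RCMNs n = 3). Each LPS+RCMNs library lies above both LPS libraries, and replicate 2 is the lowest of its group in each panel.

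Most listed genes of the lysosome, where macrophages digest what they take up, were called higher once length was taken into account. Of 26 tested, 12 were higher and 5 lower without correction, a median of 0.25 beside -0.39 for like genes. In the corrected fit 19 were higher (73.1%) and none was lower, with a median of 0.65, and 14 to 21 were higher without any 1 library. Psap, the precursor of the saposins that help lysosomal enzymes to break down sphingolipids (chr10:60277628-60302600), stood at 511.2 and 447.9 CPM in LPS and at 1686.1, 1258.2 and 1676.3 CPM in LPS+RCMNs. The corrected change was 2.13 ± 0.16 (SE; edgeR adjusted p = 6.2e-05). In control Psap held 1273.5 to 1394.4 CPM, so its LPS libraries were the low ones. Lipa, the lysosomal acid lipase, had 121.3 and 110.9 CPM against 339.3, 188.4 and 326.5 CPM, a corrected change of 1.40. Of these 26 genes, 10 were called in the same direction in both fits and 3 in opposite directions. The number higher therefore rests in part on the correction. Cd68, a lysosomal membrane protein, shows how far the correction can carry. It was called lower at -0.52 and higher at 0.65 corrected, beside -0.97 for like genes. Among 24 proteases and inhibitors 15 were higher and 2 lower after correction, but 9 and 8 without it, with 3 genes called in opposite directions, so the balance of this list rests on the correction. Plau, the urokinase plasminogen activator (chr14:20836662-20843388), had the largest corrected rise among genes called in both fits with a mean FPKM of at least 5 in the 5 libraries. It had 62.8 and 81.8 CPM in LPS and 1546.3, 554.5 and 1485.3 CPM in LPS+RCMNs, and control libraries held 517.2 to 1095.9 CPM. Its corrected change was 4.52 ± 0.55 (SE) with all libraries and 4.88 without LPS+RCMNs replicate 2.

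Of 19 iron and metal handling genes 7 were higher (36.8%) and 3 lower after correction, and 6 and 4 without it, with 2 called in opposite directions. Slc40a1, the iron exporter ferroportin, had 9.69 and 12.4 CPM in LPS and 137.6, 26.0 and 120.5 CPM in LPS+RCMNs. Replicate 2 lay nearer to LPS than to its own group, and the corrected change of 2.90 ± 0.65 (SE) became 3.37 without it. That call was lost when either LPS library was left out (edgeR adjusted p = 0.076 without replicate 1 and 0.0569 without replicate 2). The ferritin genes Fth1 and Ftl1, which store iron, were called lower without correction (-0.77 and -0.81) and higher with it (0.97 and 0.81), so their direction rests on the correction. Of 16 LXR target and cholesterol efflux genes, 9 were higher and 2 lower, and 7 (43.8%) and 2 after correction, with 4 higher without LPS replicate 2. Abcg1, a cholesterol exporter, had 5.03 and 5.57 CPM against 36.5, 23.8 and 40.7 CPM. Its corrected change of 1.90 missed the threshold without either LPS library (edgeR adjusted p = 0.0966 and 0.0944). Of 22 cholesterol synthesis genes 5 were higher and 3 lower after correction, a median of 0.02, with 2 higher and 1 lower without either LPS library and 6 lower without LPS+RCMNs replicate 2. Arg1, which converts arginine to ornithine, was higher at 31.2 and 23.1 CPM against 153.3, 74.2 and 142.4 CPM, while Odc1, which turns ornithine into polyamine precursors, was lower at 2542.1 and 2330.0 CPM against 762.5, 1012.3 and 793.9 CPM. Ptgs2, the inducible prostaglandin synthase COX-2, was lower at 323.2 and 301.3 CPM against 63.0, 23.3 and 58.1 CPM, a corrected change of -3.20. Acod1, which makes itaconate, was lower as well (-1.64 corrected). Control libraries held 75.1 to 211.9 CPM of Arg1, so its LPS libraries were the low ones.

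Heat shock chaperones, which refold damaged proteins, were lower with RCMNs. Of 20 tested, 18 were lower and none was higher, a median log2 fold change of -1.03 beside -0.26 for like genes. After correction 16 were lower (80.0%) and none was higher, and 11 to 17 were lower without any 1 library. Hspa1a and Hspa1b encode the inducible chaperone HSP70. Hspa1a had 936.6 and 577.1 CPM in LPS and 0.0981, 0.608 and 0 CPM in LPS+RCMNs, and Hspa1b had 1035.4 and 981.0 CPM against 0.540, 0 and 1.11 CPM. Control libraries held at most 0.390 CPM of either gene, so the signal was confined to the 2 LPS libraries among the 8. The genes are nearly identical, so the split of reads between them is uncertain, and with 14 and 34 counts in LPS+RCMNs the fold sizes are uncertain too. Members outside this pair changed less: Hspa8, the constitutive HSP70, had 14118.1 and 12908.5 CPM against 3002.3, 3881.5 and 3094.8 CPM (-1.13 corrected), and Dnaja1, its co-chaperone, had a corrected change of -1.30. Hsf1, the transcription factor of the heat shock response, was lower at -0.59 corrected.

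The promoter of Hspa1a is shown because its transcript had the largest corrected fall by the same rule. It is the 250 bases before the start of the gene in RefSeq (GRCm38.p6, chr17:34972157-34972406, minus strand), with the match to the heat shock element GAANNTTC in capitals.
Hspa1a: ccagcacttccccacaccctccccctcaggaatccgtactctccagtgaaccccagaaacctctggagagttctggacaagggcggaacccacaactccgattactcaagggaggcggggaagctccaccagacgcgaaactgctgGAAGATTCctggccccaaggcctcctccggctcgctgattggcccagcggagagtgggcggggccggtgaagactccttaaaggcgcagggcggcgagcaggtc
The match starts 104 bases before the start, and the window of Hspa1b differs from it at 3 of 250 bases. The element was found on either strand in 6.26% of the 9629 tested genes with a promoter, in 7 of 16 heat shock chaperone genes, in 6.84% of genes lower in both fits and in 4.59% of those higher in both. None of these shares was tested.

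Among stress genes outside the chaperones, Ppp1r15a, which restarts translation after stress, had 130.0 and 174.1 CPM in LPS and 17.4, 11.5 and 16.6 CPM in LPS+RCMNs (-3.15 corrected). It was the 1 of 18 integrated stress response genes lower after correction, with 1 higher (4 and 2 without control replicate 1). Of 21 unfolded protein response genes 6 were higher and none was lower after correction, among them Ern1 (0.89), a sensor of that response. That number depended on single libraries: 2 were higher without LPS replicate 1 or LPS replicate 2, 3 without LPS+RCMNs replicate 1 or 3, and 12 without control replicate 1. Gadd45a, a growth arrest gene, stood at 53.5 CPM on average in LPS (SD 4.99, n = 2) against 2.70, 4.30 and 3.32 CPM, and Fas, a death receptor, at 26.0 and 28.2 CPM against 2.06, 3.19 and 2.40 CPM. Cdkn1a, the p21 cell cycle inhibitor, was higher at 1.33 corrected, so p53 targets did not move as one: 4 of 16 were higher and 5 lower after correction. Of 37 cell cycle genes 15 were higher and 2 lower after correction (9 higher without LPS replicate 2), with Ccnd1, cyclin D1, at 1.71 and Tyms, thymidylate synthase, at -1.52.

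Genes that make or remove ROS gave no common direction after correction. Of 9 NADPH oxidase genes, the source of the oxidative burst, 7 were lower and none was higher without correction, a median of -0.59 beside -0.43 for like genes. After correction 3 were lower, Ncf1 (-0.62), Rac2 (-0.44) and Nox1 (-1.56), and 2 were higher. Of 23 scavengers 18 were lower and none was higher without correction, but like genes were as low (-0.97 beside the list's -0.99), and after correction 7 were lower and 5 higher, or 4 and 3 without either LPS library or LPS+RCMNs replicate 3. Sod2, the mitochondrial superoxide dismutase, was lower in both fits, at 832.1 and 719.8 CPM in LPS against 184.2, 241.9 and 178.1 CPM in LPS+RCMNs and 102.6 to 113.9 CPM in control. Its corrected change was -2.08 ± 0.14 (SE; edgeR adjusted p = 3.76e-05). Gpx4, which removes lipid peroxides, was called lower without correction (-0.97) and higher with it (0.42). Of 29 Nrf2 targets and regulators 4 were higher and 11 lower without correction, a median of -0.11 beside -0.31 for like genes, and 6 were higher and 6 lower with it. Without LPS replicate 1 the corrected calls were 4 higher and 2 lower, and without LPS+RCMNs replicate 3 they were 4 and 3. Hmox1, heme oxygenase 1, had 414.2 and 416.1 CPM in LPS and 817.7, 219.0 and 657.9 CPM in LPS+RCMNs, so replicate 2 fell below both LPS libraries and the other 2 lay above them. It was not called without correction (0.44 ± 0.47, SE; edgeR adjusted p = 0.442) or with it (1.32 ± 0.52, SE; edgeR adjusted p = 0.0718), beside -0.97 for like genes. Without replicate 2 it was called higher in both fits (0.80, edgeR adjusted p = 0.0388, and 1.74 corrected, edgeR adjusted p = 0.00256). Sqstm1, an autophagy receptor that Nrf2 induces, was lower in both fits, at 1031.5 and 812.7 CPM against 376.5, 294.4 and 331.2 CPM, and Gsr, glutathione reductase, was higher in both (0.73 corrected).

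Of 9 glucocorticoid targets 4 were higher and none was lower after correction, with Fkbp5, a chaperone partner of the glucocorticoid receptor, at 111.6 and 101.0 CPM in LPS and 229.7, 263.4 and 235.3 CPM in LPS+RCMNs (0.99 corrected). Hsd11b1, which makes active glucocorticoid, had 0.606 and 0.424 CPM against 3.97, 5.06 and 4.37 CPM, and control libraries held 0.372 to 1.21 CPM. Of 12 integrin genes 6 were higher and 1 lower after correction, and 9 and 1 without it. Itgam, the CD11b chain of complement receptor 3, had 425.1 and 363.6 CPM against 1323.2, 1096.5 and 1349.9 CPM (1.47 corrected). Of 10 complement genes 4 were higher and none was lower after correction, and 4 and 2 without it. C3, the central component, had a corrected change of 1.32. Its 62.7 to 94.5 CPM in LPS+RCMNs also lay above the 24.1 to 32.3 CPM of control. Of 28 glycolysis and hypoxia genes 10 were higher and 3 lower after correction, but 8 and 11 without it, with 4 called in opposite directions. The corrected number higher was 4 without LPS replicate 1 and 6 without LPS replicate 2. Among them was Hk2, an inducible hexokinase, at 79.4 and 91.8 CPM against 269.9, 214.4 and 267.0 CPM. Of 27 actin cytoskeleton genes 15 were higher and 2 lower after correction, but 14 were lower and 9 higher without it, so the direction of this list rests on the correction, and 8 were higher without LPS replicate 2.

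Large sets of short genes showed the length trend most plainly, although the median of the histone genes stayed low after correction. Of 81 cytosolic ribosomal protein genes, all 81 were lower without correction, a median of -1.89 beside -1.57 for like genes, and 32 were lower and 1 higher after it, with a median of -0.14 (19 lower without LPS replicate 1 and 17 without LPS replicate 2). Of 76 oxidative phosphorylation genes, all 76 were lower without correction, and 20 were lower and 9 higher after it, with a median of -0.06. Those corrected counts were 8 lower and 1 higher without LPS replicate 1, 9 and 2 without LPS replicate 2, 12 and 6 without LPS+RCMNs replicate 1, and 11 and 3 without LPS+RCMNs replicate 3. The 38 proteasome genes went from 36 lower to 14 lower and 2 higher (7 lower without LPS replicate 1). Uqcrq and Ndufa11, of the respiratory chain, lost their corrected calls when annotated gene lengths were used (edgeR adjusted p = 0.427 and 0.0856). Of 41 tested replication-dependent histone genes 24 were lower and 3 higher, a median of -2.65 beside -0.46 for like genes. That median was -2.63 with the 4 genes at 0 in a group set to their bound. After correction 20 were lower and 5 higher, a median of -1.78. The corrected median ran from -1.98 to -1.45 when any 1 library was left out. H2ac20 had 1.39 CPM in both LPS libraries and no count in LPS+RCMNs. That makes it at least 9.14-fold lower against a floor of 3 counts per library. H2ac15 (0.787 and 1.82 CPM in LPS) and H4c6 (1.09 and 0.788 CPM) were also near the floor, with no count in LPS+RCMNs. The libraries were made from polyadenylated RNA, and what that selection does to histone transcripts was not tested.

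**Figure D4:**
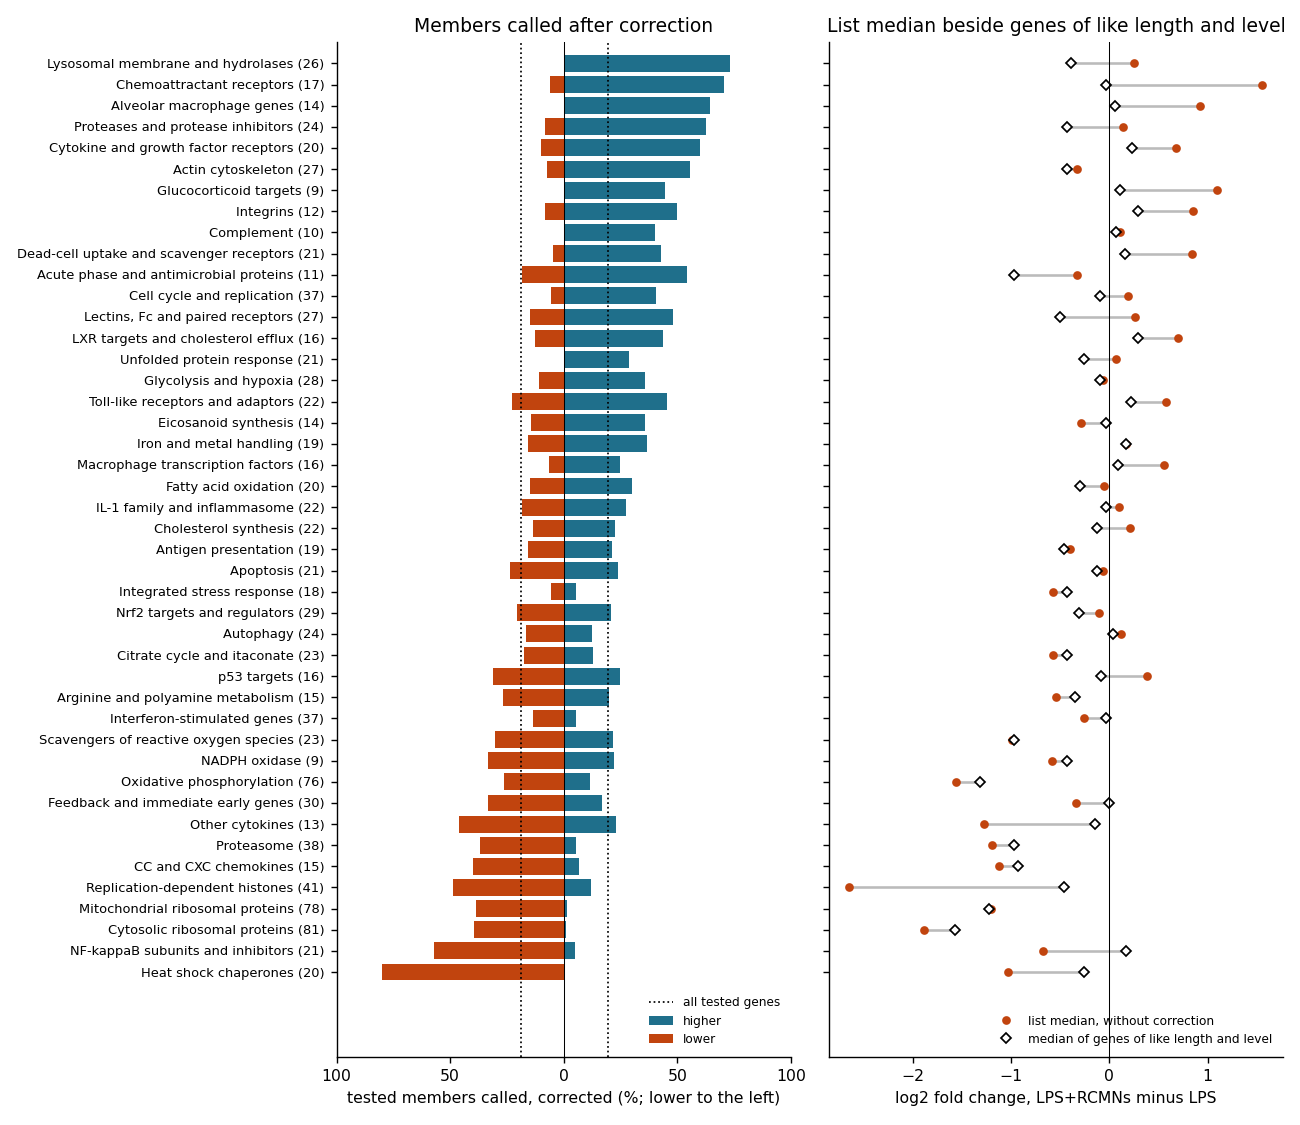
Left, percent of the tested members of each list called higher (right of 0) or lower (left of 0) after correction, with dotted lines at the percentages over all tested genes (19.3% higher, 18.9% lower). Right, the uncorrected median of each list (circles) beside the median of genes of like length and level (diamonds), with numbers of tested members in parentheses on the left. Lysosomal genes and chemoattractant receptors lie at the top, heat shock chaperones and NF-kappaB genes at the bottom.

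Of the 8 largest corrected falls by that rule, 3 were Hspa1a, Hspa1b and Il1b and the other 5 were red cell genes. Hbb-bs, an adult beta globin, had 1846.7 and 2417.0 CPM in LPS and 12.9, 0.203 and 13.6 CPM in LPS+RCMNs, and Alas2, the erythroid enzyme that starts heme synthesis, had 30.0 and 33.3 CPM against 0.393, 0.0506 and 0.577 CPM. Of the other 7 erythroid markers in the table, 6 held at most 0.545 CPM in any library. Rhd had 8.54 and 7.88 CPM in LPS against 10.6, 8.05 and 9.66 CPM, and its groups overlapped. Reads of the 4 globin genes may be shared between copies, so their single values are uncertain. Of 8 neutrophil markers in the table, summed levels were 18.4 and 38.7 CPM in LPS and 4.12 to 4.85 CPM in LPS+RCMNs. Most of that sum was Cxcr2, which held 13.3 and 33.4 CPM in LPS and 3.8 to 4.37 CPM in LPS+RCMNs. Ly6g, Mpo, Elane and Ngp were at or near 0 in each library, and S100a9 had 2.18 and 2.67 CPM in LPS and no count in LPS+RCMNs, at least 15.9-fold lower against the floor. H2-Aa, a class II antigen presentation gene, also had counts in LPS (1.33 and 1.76 CPM) and none in LPS+RCMNs or control. Lymphocyte and lung epithelial markers summed to at most 1.58 and 0.484 CPM in any library. The part of other cells or of added RNA in the differences above was not tested. In bulk RNA, fewer cells of a type and less RNA per cell cannot be told apart.

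**Figure D5:**
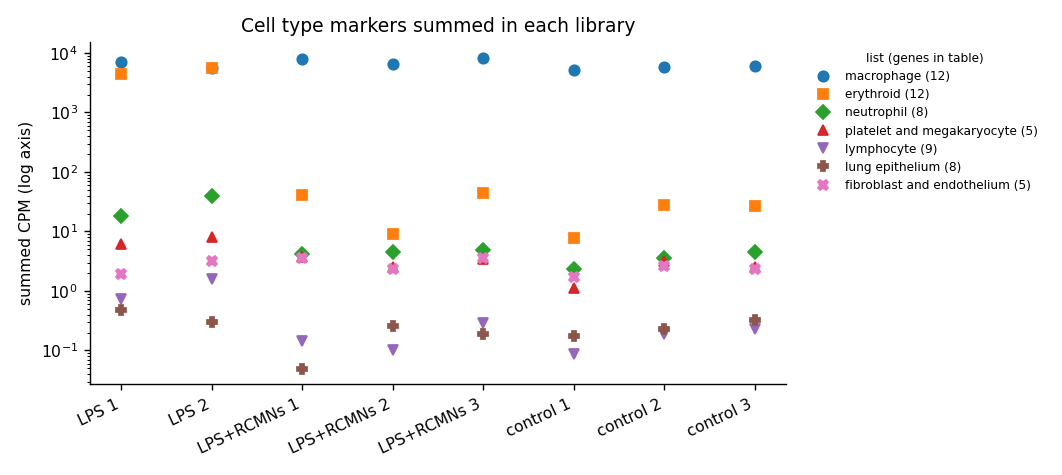
Summed CPM of the markers of 7 cell types in each library, on a log axis, with the number of genes in the table in parentheses. Erythroid markers reach 4368.2 and 5632.4 CPM in the LPS libraries and 9.01 to 44.0 CPM in LPS+RCMNs, while macrophage markers lie between 5066.5 and 8262.8 CPM in the 8 libraries.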

How the data were processed

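Polyadenylated RNA of MH-S cells was sequenced in 8 libraries: per the labels' protocols, TRIzol was used for extraction and a BGI kit for library preparation. The authors deposited estimated counts and FPKM per gene and library, per the file headers, and of the counts greater than 0, 77.8% were not whole within 0.001. Per the submitters' processing notes, mm10 was the build. Which aligner, counter and annotation were used is not given in the sources used here. Columns were matched by library code, and 4 per-sample columns that match no sample were not used.

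After rounding, counts passed filterByExpr and TMM scaling. The quasi-likelihood test of edgeR 4.0.16 (R 4.3.3, limma 3.58.1) was fitted to all 8 libraries in 3 groups, with Benjamini-Hochberg adjustment over 11911 genes. The common coefficient of variation was 14.5%. The corrected fit adds offsets from a loess surface (span 0.4) of each library on log2 gene length and mean level, with length implied by counts and FPKM, and like genes share 1 cell of 10 length and 5 level bins. Named genes are the 8 largest corrected rises and falls called in both fits without overlap and with a mean FPKM of at least 5, the 3 largest per list, and fixed genes. The text describes only part of these 141 genes. Sirpb1c (4.01 corrected), Thbs1 (3.12) and Tlr5 (3.64) are among those it leaves out. The comparison, lists and alternatives were chosen with earlier results of these data known. Alternatives included DESeq2 1.42.0 and limma on log2(FPKM + 1).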

Additional observations from a re-analysis of the deposited data

How the results depend on the processing

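Without correction the counts of genes higher and lower stayed within 1.5 times of 3555 and 3508 in fits of the 5 libraries only, with no filter or an FPKM filter, with median-ratio size factors and in DESeq2. They moved further with the length trend alone removed (2224 higher), with limma on log2(FPKM + 1) (5448 higher and 2117 lower, where the median of all genes was 0.27) and with a log2 fold minimum of 1 (1577 and 1585). After correction that minimum gave 792 and 668, leaving out control 1 and LPS+RCMNs 2 together gave 3726 and 3659, and annotated GENCODE lengths, chosen after seeing the data, gave 2590 and 2596. Leaving out 1 library gave 2683 to 3788 higher and 2930 to 3897 lower without correction, and 1303 to 2867 and 1372 to 2686 with it. The lowest corrected counts came without LPS replicate 1 (1303 and 1372) and without LPS replicate 2 (1349 and 1457), where the lone LPS library is assumed to vary like the other groups. Of the 141 named genes, 99 kept their side of the threshold under each alternative, and of 4341 gene values 167 lost and 9 gained a call. The reversed ones were Tnf without LPS replicate 1 (-0.12, range -0.12 to 0.68 over the libraries left out) and corrected Gabarapl1 with GENCODE lengths (0.05). Counts within lists without each library were also added after seeing the data: without LPS+RCMNs replicate 2, corrected calls were 13 lower for NF-kappaB genes, 12 higher for chemoattractant receptors, 16 lower for chaperones and 21 higher for lysosomal genes. At this depth, genes at 0 in a group allow only a bound.

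With the replicate number as a block 3095 genes were higher and 3089 lower, and 1752 and 1631 after correction. Whether the numbers pair the samples cannot be settled here, because the deviations of the 2 LPS libraries mirror each other. Across genes, deviations of same-numbered LPS and LPS+RCMNs libraries correlated at -0.12 and -0.16. The values were 0.20 and 0.17 for control and LPS, and -0.34, -0.39 and 0.26 for control and LPS+RCMNs. Control replicate 1 and LPS+RCMNs replicate 2, which carry different numbers, correlated at 0.42, the highest value computed. These are the libraries that were also left out together.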
